A study of Mus musculus with 4 samples.

Results

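The immunoglobulin heavy chain (Igh) locus was described through the CTCF regions in its window on mouse chromosome 12, chr12:114300000-117300000 in the build mm9. Merging the peaks of 4 deposited lists wherever they shared at least 1 bp gave 29116 regions, and the 39 regions with a centre in the window are the members. They were chosen by position alone. The constant genes and their 3′ regulatory region lie below about 114.80 Mb, a stretch called the constant end here, which held 12 regions. The variable segments lie above that boundary, and 27 regions were found there.

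The data were CTCF ChIP-seq peak lists from WEHI-231, an IgM-bearing mouse B cell lymphoma line of a BALB/c by NZB cross. Control cells and cells with a stable knockdown of the transcription factor TFII-I gave 2 libraries each, and the series design names the knockdown cells with an shRNA prefix. Both groups were precipitated with the same CTCF antibody. The series title poses the question whether TFII-I targets CTCF to gene promoters. The 4 lists held 24467 and 23873 control peaks and 19076 and 15309 knockdown peaks. No label says whether the replicates were separate cultures, so p-values measure only the spread between libraries, which may be technical. The extent of the knockdown was not analysed here.

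The Igh locus builds the antibody heavy chain by joining a variable, a diversity and a joining segment in front of the constant genes. On chromosome 12 it runs against the coordinate direction, so that the variable segments lie at higher coordinates and the constant genes at lower ones. CTCF is an insulator protein that holds chromatin loops. At Igh it is known to bind a cluster of sites beyond the 3′ regulatory region, sites between the variable and diversity segments, and many sites among the variable segments. In B cells the joining of segments deletes the DNA between them. Which segments were joined in this line is not given in the labels, and the reference genome comes from C57BL/6, a strain other than the parents of the line.

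The RefSeq gene table for GRCm38.p6 was used for gene order only. It lists 8 constant genes in the order Igha, Ighe, Ighg2c, Ighg2b, Ighg1, Ighg3, Ighd and Ighm, from low to high coordinates. Ighm encodes the mu chain of IgM and Ighd the delta chain of IgD. Beyond Ighm follow 4 joining segments, then diversity segments (10, with 10 pseudogenes) and variable segments (121, with 63 pseudogenes). The protein-coding genes before Igha are, in order, Mta1, Crip2, Gm30599, Crip1, Tedc1 and Tmem121, and the first one after the variable segments is Zfp386, which encodes a zinc finger protein. Either end of the window may therefore hold sites of neighbouring genes as well. Because no mm9 annotation was used here, no region was assigned to a gene.

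The regions were denser at the constant end than among the variable segments. The constant end held 24.0 regions per Mb and the variable segments 10.8 per Mb, beside a median of 9.33 per Mb over autosomal windows and 30.0 per Mb in the adjoining window at lower coordinates. Over the 813 autosomal windows, each of the same 3.00 Mb, the median was 28.0 regions, and 533 windows (65.6%) held fewer than the 39 of the Igh window. The adjoining 3.00 Mb window at lower coordinates held 90 regions and the one at higher coordinates 29. The median distance between neighbouring centres was 17.0 kb at the constant end, from 1.53 to 35.0 kb, and 45.8 kb among the variable segments, from 8.50 to 716 kb. Over all autosomes the median was 29.1 kb. The constant-end distances leave out the stretch without calls up to the boundary, described below. The median width of the Igh regions, 560 bp, was close to the 572 bp of all regions. In the histogram of regions per window, the Igh locus lies above the median of the autosomes and well under its neighbour at lower coordinates.

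**Figure D1:**
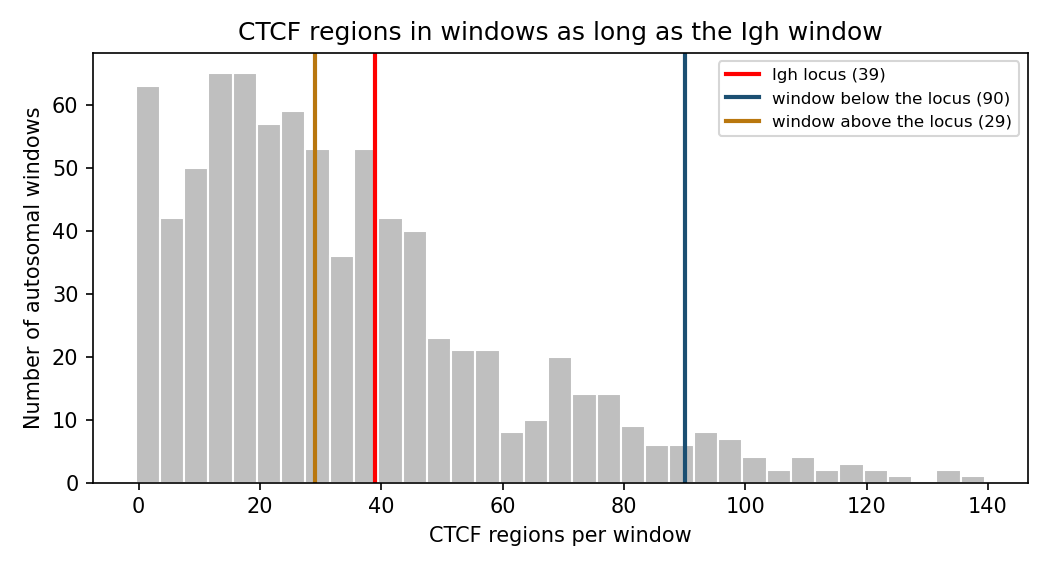
Number of CTCF regions (x axis) in 813 autosomal windows of 3.00 Mb, with the number of windows on the y axis; lines mark the Igh window (39 regions) and the windows next to it on chromosome 12 (90 and 29). The Igh window lies above the autosomal median of 28.0.

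The 12 regions of the constant end all lay in its lowest part, between 114313161 and 114496029. The remainder of the constant end, 304 kb up to the boundary, held no call in any list. The call-free stretch ran on past the boundary to 114835114, a length of 339 kb. Of 28162 autosomal stretches between neighbouring regions, 1267 (4.50%) were at least as long. By the gene order, Ighd and Ighm stand at the side of the constant genes that faces this boundary. No CTCF level can be given for either gene, since neither was placed in mm9. A stretch without calls shows that no peak passed the authors' threshold there, not that CTCF was absent.

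A cluster of 3 regions lay at 114456132 to 114461385. The widest of them, chr12:114460057-114461385, spanned 1329 bp and was the widest region of the whole locus. It scored 175 in control replicate 1, 189 in control replicate 2, 114 in knockdown replicate 1 and 73.5 in knockdown replicate 2. Pairs of values below are in this order of replicates. The score is the authors' own value per peak, read as minus 10 times the log10 of a p, with a lowest value of 50 in the lists. Because scores grow with sequencing depth, lists are compared by percentile ranks, apart from an alternative with a score cut of 100 given below. Raw scores of both groups are given as a description, and a lower raw score in a knockdown list may reflect depth. The highest score of a list has a percentile rank of 100. On that scale the wide region stood at 81.0 and 87.1 in the controls, against 75.0 and 42.3 in the knockdown lists, so the groups did not overlap. In knockdown replicate 1 it was made of 2 separate peaks, and in the other lists of 1.

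The other members of the cluster were called less evenly. The region chr12:114458574-114459144, whose centre lay 1.86 kb from that of the wide one, scored 136 and 51.0 in the controls, against 84.7 and 54.3 in the knockdown lists. Its control ranks of 64.4 and 1.11 enclosed both knockdown ranks of 49.2 and 8.13. The region chr12:114456132-114456445 was called in control replicate 1 at 78.7 and in knockdown replicate 1 at 51.1, and in neither list of replicate 2. The last region before the long stretch, chr12:114495410-114496029, scored 86.5 and 113 in the controls and 59.8 in knockdown replicate 1, and had no call in knockdown replicate 2.

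Closer to the low-coordinate edge of the window, 8 regions were found between 114313161 and 114426220. The region chr12:114313161-114313776 had nearly equal control scores of 107 and 108 and knockdown scores of 54.5 and 50.9. Its ranks were 47.3 and 50.4 in the controls, against 7.68 and 1.60 in the knockdown lists. The difference between the group means, -44.2 percentile points, was the widest among the Igh regions called in all 4 lists. The region chr12:114340529-114341291 scored 148 and 221 in the controls, against 85.4 and 105 in the knockdown lists. Here the knockdown rank of replicate 2, 75.1, lay above the rank of control replicate 1, 70.5, so the groups overlapped. The region chr12:114357616-114358184 scored 121 and 127 against 79.0 and 56.2, with both knockdown ranks under both control ranks.

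The closest pair of neighbours in the locus lay further on. The regions chr12:114382605-114383164 and chr12:114384112-114384712 had centres 1.53 kb apart, and chr12:114386628-114386917 followed 2.36 kb on. The first scored 71.1 and 80.8 in the controls, against 52.2 and 84.2 in the knockdown lists. The second scored 219 and 91.5 in the controls, of which 219 was the highest in the locus in that library, and 122 in knockdown replicate 1 alone. The last of these was called in control replicate 2 only, at 67.1. Of the next regions, chr12:114393930-114394610 scored 154 and 145 in the controls and 70.7 in knockdown replicate 1. The region chr12:114425618-114426220 scored 187 and 168 in the controls and 66.3 in knockdown replicate 1. Neither had a call in knockdown replicate 2.

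Knockdown replicate 2 lacked more constant-end regions than any other list. Between 114382985 and 114458773, a stretch of 75.8 kb, knockdown replicate 2 had no peak, while other lists had 5 regions there, 3 of them called in both controls. Between called regions of the constant end, the longest stretch without a peak was 34.6 and 34.0 kb in the control lists and 34.3 kb in knockdown replicate 1, leaving aside the call-free stretch up to the boundary. Knockdown replicate 2 covered 6 of the 12 regions, against 11 in each of the other lists. Its list was also the least complete over the whole series, with 15268 of 29116 regions, a share close to that at the constant end. The other lists held 18935 (knockdown replicate 1), 23807 (control replicate 2) and 24388 (control replicate 1) of them. Of 10 constant-end regions called in both controls, 6 were called in both knockdown lists, 4 in replicate 1 only and 0 in neither. A count of 0 allows a share of up to 30.8% (upper limit of the exact 95% Clopper-Pearson interval). Of all 20780 regions called in both controls, 11741 were called in both knockdown lists. A further 21.1% were called in knockdown replicate 1 and not in replicate 2, and 14.8% in neither, a share that the interval includes. The list of knockdown replicate 2 is also the shortest of the series, and its part in these missing calls was not tested.

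**Figure D2:**
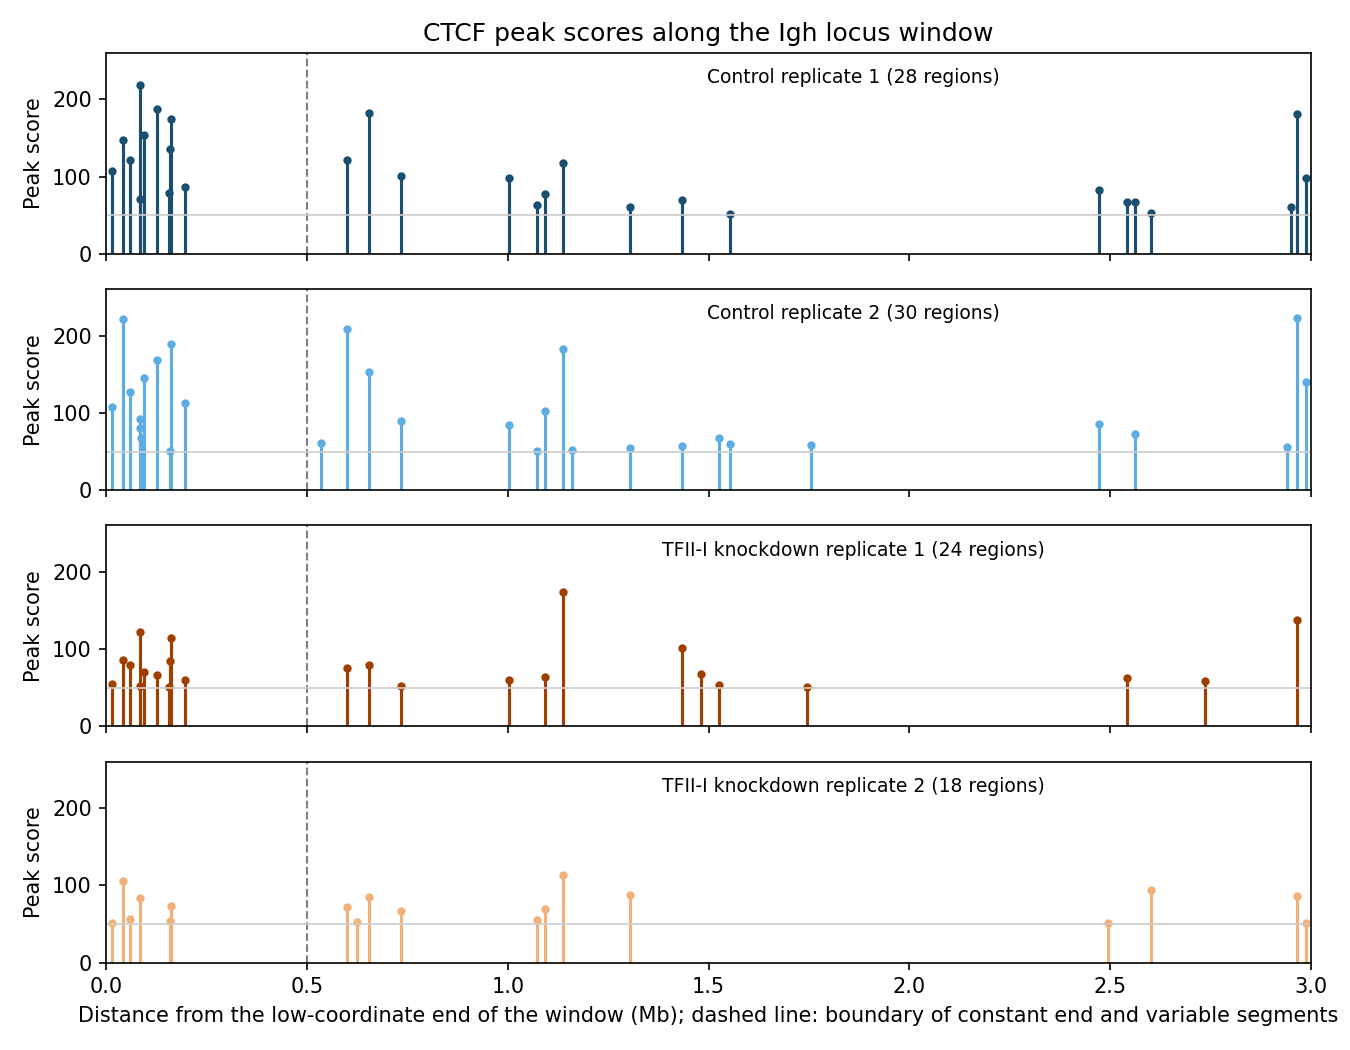
Authors' score of each CTCF region (y axis, grey line at the lowest score) against distance from the low-coordinate end of the Igh window (x axis, Mb), with 1 panel per library and a dashed line at the boundary of constant end and variable segments. The constant end held 11, 11, 11 and 6 called regions in control replicates 1 and 2 and knockdown replicates 1 and 2, and the stretch around the boundary held none.

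Among the variable segments a second stretch of 715 kb, from 116056091 to 116771396, held no call in any list, and 495 of the 28162 autosomal stretches (1.76%) were as long. Another long stretch of 267 kb ran from 115034432 to 115301320. The 17 regions between the boundary and the 715 kb stretch included 10 called in both controls and 5 called in every list. The 10 regions beyond it included 4 called in both controls and 1 called in every list. For comparison, the corresponding shares over the whole series were 71.4% and 40.3%. The stretch was picked after its length was seen, and a difference between its sides was not tested. Variable segments form families of near-identical copies, and no source used here states how reads that match several places were treated. The part of read placement in these stretches was not tested.

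Of the variable-end regions, those toward both edges are given first. At the far edge, chr12:117266207-117266690 scored 181 and 223 in the controls, against 137 and 85.7 in the knockdown lists. Its control ranks of 82.7 and 93.0 were the highest on average of the locus, and the knockdown ranks of 86.0 and 58.3 overlapped them. Its neighbour chr12:117287780-117288485 scored 98.0 and 140.4 in the controls and 50.8 in knockdown replicate 2, with no call in replicate 1. Near the boundary, chr12:114954492-114955163 scored 183 and 153 in the controls, against 79.3 and 85.4 in the knockdown lists. Beside it, chr12:114899608-114900109 scored 122 and 208 against 75.8 and 71.4. Further on, chr12:115034017-115034431, scored 101 and 89.7 against 51.6 and 66.3. In these 3 regions both knockdown ranks lay under both control ranks, for example 43.3 and 57.8 against 83.3 and 75.7 for chr12:114954492-114955163.

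A region in the middle of the variable segments had a higher mean rank in the knockdown lists. The region chr12:115437576-115438302 scored 118 and 182 in the controls, against 174 and 113 in the knockdown lists. Its ranks were 54.4 and 85.4 in the controls, against 94.5 and 80.5 in the knockdown lists, a mean difference of 17.6 points with overlapping groups. In knockdown replicate 1 it had the highest score of the whole locus, and in replicate 2 also. The region chr12:115390981-115391609, whose centre lay 46.6 kb lower, scored 77.0 and 102 against 64.0 and 69.8. Its ranks of 25.8 and 46.3 in the controls overlapped those of 22.7 and 35.9 in the knockdown lists. The region chr12:115301321-115301944 scored 97.8 and 84.1 in the controls and 59.7 in knockdown replicate 1 alone.

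Some weak control regions among the variable segments had a higher rank in 1 knockdown list and no call in the other, and 3 of them were singled out after their values were seen. The region chr12:115604345-115604930 scored 60.5 and 54.5 in the controls, at ranks 11.5 and 5.06, and 87.2 at rank 59.9 in knockdown replicate 2. The region chr12:115733838-115734396 scored 70.2 and 57.7 in the controls, at ranks 20.0 and 8.77, and 101 at rank 65.0 in knockdown replicate 1. The region chr12:116902118-116902851 scored 52.7 in control replicate 1, at rank 2.96, and 93.9 at rank 66.8 in knockdown replicate 2. Each of these differences came from a single library and has no replicate. The 8 variable-end regions not given by position had scores of 50.6 to 67.3 in the lists that called them.

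Weak calls made up much of the remaining variable end. Of the 39 Igh regions, 11 (28.2%, exact interval 15.0 to 44.9%) were called in a single list, against 20.0% of all regions. Their scores ran from 50.8 to 67.4. Of the 11, 10 lay among the variable segments (37.0% of the 27 regions there, exact interval 19.4 to 57.6%). The median rank of regions called in both controls was 62.2 at the constant end and 36.5 among the variable segments, against 55.8 over the whole series. By library, the median rank of peaks at the constant end and among the variable segments was 64.4 and 25.8 in control replicate 1, 53.9 and 23.2 in control replicate 2, and 35.5 and 22.7 in knockdown replicate 1. Knockdown replicate 2 had the opposite order, with 27 and 37.3. All these intervals cover counting error over regions, which are not replicates.

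No Igh region was called in both knockdown lists and in neither control, a class that held 0.488% of all regions, so that none among 39 says nothing about the locus. A call in at least 1 knockdown list and in no control was found for 5 of 39 regions (12.8%, exact interval 4.30 to 27.4%), beside 5.84% of all regions. All 5 lay among the variable segments. Knockdown replicate 1 called chr12:115780314-115780641 at 67.4, chr12:116044212-116044434 at 50.8 and chr12:117036354-117036558 at 58.4. Knockdown replicate 2 called chr12:114923518-114923893 at 52.4 and chr12:116794496-116794885 at 51.1. These scores lie near the lowest value of the lists, and the interval for the locus includes the share of all regions. Among the variable segments alone, 5 of 27 were 18.5% (exact interval 6.30 to 38.1%), an interval above that share. Each of the 5 calls came from 1 library, regions are not replicates, and the difference was not tested.

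The regions called in both controls and in neither knockdown list numbered 3 of 24 in the locus (12.5%, exact interval 2.66 to 32.4%), near the 14.8% of all regions called in both controls. All 3 were weak control calls among the variable segments. The region chr12:116771397-116771815, at the far edge of the 715 kb stretch, scored 82.7 and 86.0, with 70921 bp to the nearest peak of knockdown replicate 1 and 22680 bp to that of replicate 2. The region chr12:116862305-116863027 scored 66.6 and 72.7. The region chr12:115853387-115853838 scored 51.1 and 59.8, with 27667 and 248477 bp to the nearest knockdown peaks. A further 9 of the 24 (37.5%, 18.8 to 59.4%) were called in 1 knockdown list, 6 in replicate 1 and 3 in replicate 2, against 28.7% of all such regions. With 1 library left out, 4 to 9 regions had control calls and no knockdown call, since fewer calls are then required. With lists cut to the same length no Igh region was of this class.

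**Figure D3:**
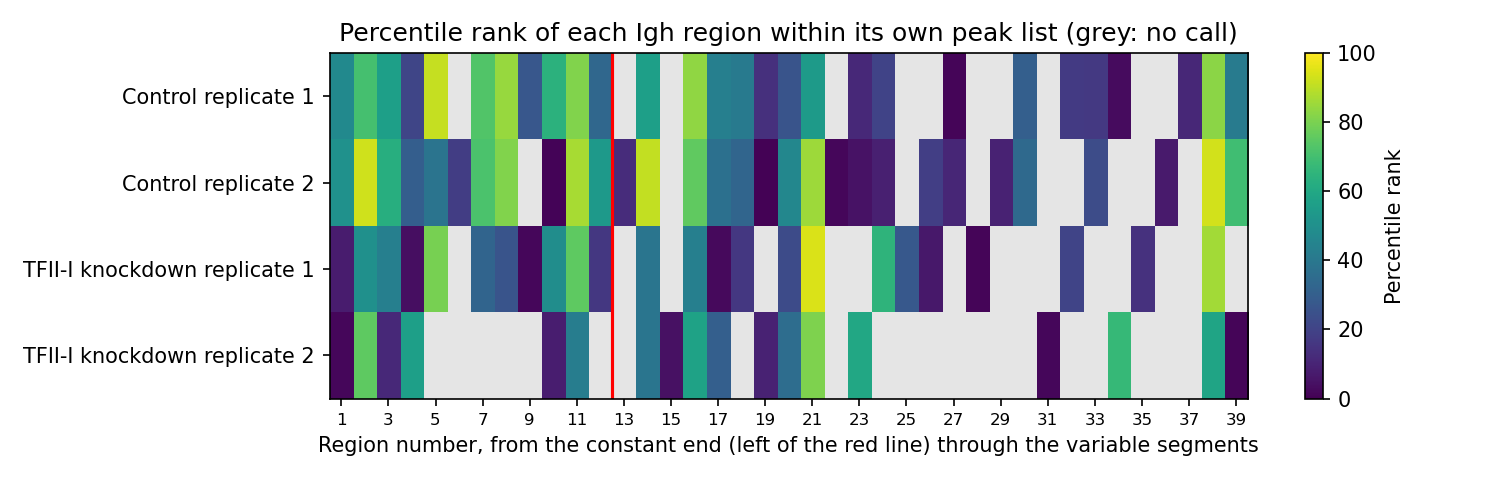
Percentile rank within its own list (colour, 0 to 100) of each of the 39 Igh regions (x axis, numbered from the constant end) in each of the 4 libraries (rows), with grey for no call and a red line at the boundary after region 12. Grey cells are frequent among the variable segments and, at the constant end, in knockdown replicate 2.

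The knockdown lists had fewer peaks in the locus than the control lists, which are also longer as a whole. Control replicates 1 and 2 had 28 and 30 peaks in the window and knockdown replicates 1 and 2 had 25 and 18, a mean of 29.0 ± 1.41 against 21.5 ± 4.95 (SD, n = 2 each). The two-sided exact permutation test gave p = 0.333, the smallest value that 2 libraries against 2 allow, so no test here could pass 0.05. As a share of its list the locus took 0.114% and 0.126% of control peaks and 0.131% and 0.118% of knockdown peaks, which overlap (exact permutation p = 0.667). The difference in share changed sign without control replicate 1 (-0.00135) or without knockdown replicate 1 (-0.00247), from 0.00426 percentage points with all libraries. With peaks at a score of 100 or more only, the share was 0.0956% in control and 0.0598% in knockdown, a difference of -0.0359 points, and the peak numbers were 13.0 and 3.50 on average. The median score of a whole list was 111 and 107 in control and 85.5 and 79.1 in knockdown. This cut therefore removes a larger part of the knockdown lists. With each list limited to its 15309 strongest peaks, the knockdown lists had more peaks in the locus, 17.0 on average against 15.0.

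Peak numbers were then taken at each end of the locus. Among the variable segments the controls had 17 and 19 peaks and the knockdown lists 13 and 12, means of 18.0 ± 1.41 and 12.5 ± 0.707 (SD, n = 2; exact permutation p = 0.333). At equal list length this order turned, with 7.00 control and 10.0 knockdown peaks on average. At the constant end the controls had 11 and 11 peaks and the knockdown lists 12 and 6 (exact permutation p = 1.00). Without knockdown replicate 2 the constant end had 1.00 peak more in knockdown than in control. This extra peak came from chr12:114460057-114461385, which held 2 peaks in knockdown replicate 1. Counted as called regions, both control lists and knockdown replicate 1 had 11 each. The difference between both ends was not tested.

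The regions called in every list numbered 12 of 39 (30.8%, exact interval 17.0 to 47.6%), against 40.3% of all regions, with 6 at each end. Their mean rank was 57.2 and 62.7 in the control lists, against 43.1 and 41.4 in the knockdown lists. The group means were 60 ± 3.86 and 42.2 ± 1.18 (SD, n = 2), and the groups did not overlap (exact permutation p = 0.333). With lists of equal length the difference was -10.9 points, 62.9 in control against 52.1 in knockdown, and the groups overlapped (exact permutation p = 1.00). Ranks from lists of unequal length describe each list and cannot show whether binding changed. Regions called in every list across the genome also ranked lower in the knockdown lists, at 65.8 ± 0.332 against 57.5 ± 2.87 (SD, n = 2). Both knockdown ranks lay under both control ranks in 6 of the 12 Igh regions (exact interval 21.1 to 78.9%), against 28.9% of all regions called in every list. The reverse order was found in 0 of 12, which allows up to 26.5%, against 11.1%. The median difference per region, knockdown minus control, was -21.5 points in the locus and -7.26 points over all 11741 regions in the complete lists. These values describe 12 regions in 4 libraries and were not tested against the other regions. With only peaks at a score of 100 or more, 1 Igh region was called in every list and its mean rank was 11.1 points higher in knockdown.

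**Figure D4:**
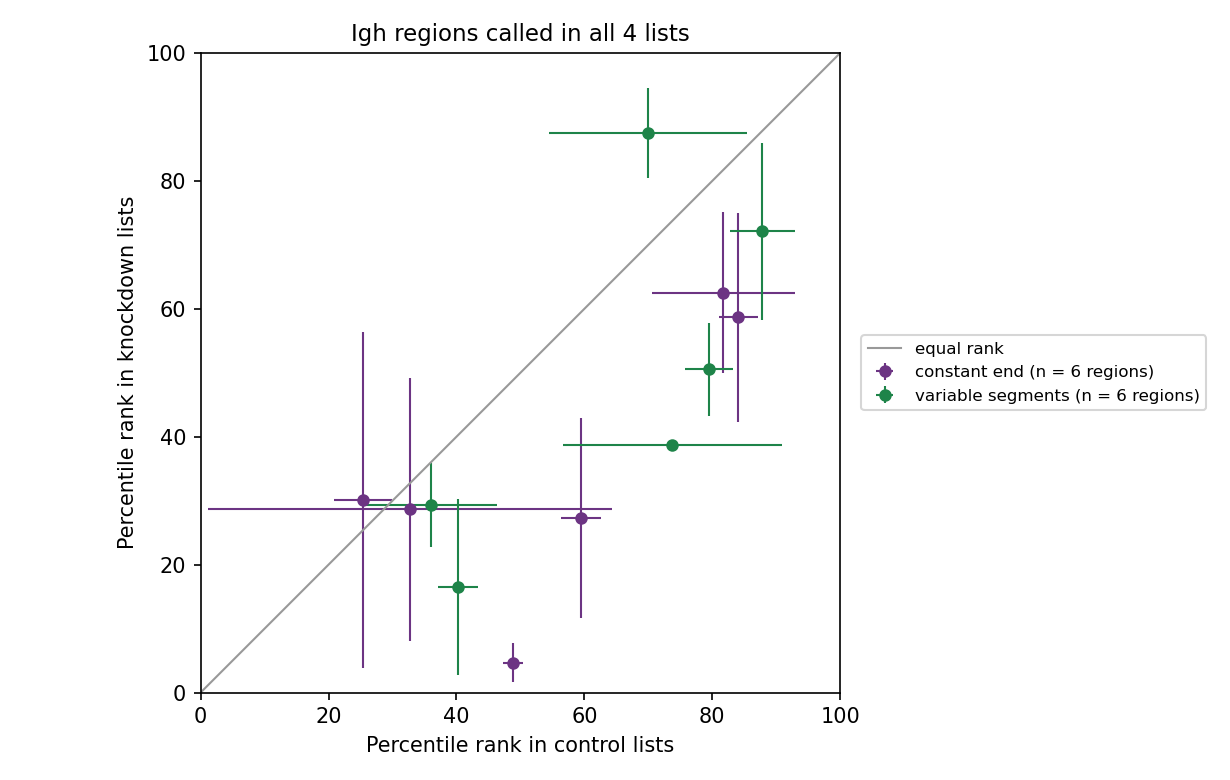
Mean percentile rank in the 2 knockdown lists (y axis) against the 2 control lists (x axis) for the 12 Igh regions called in every list, with bars from the lower to the higher replicate and a line of equal rank. In 10 of the 12 regions (83.3%) the knockdown mean lies below the line, against 66.5% of all 11741 regions called in every list.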

How the data were processed

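CTCF ChIP-seq was measured in 2 control and 2 TFII-I knockdown libraries of WEHI-231. BWA, HOMER and the build mm9 appear in the submitters' processing notes, without a version or role. The authors deposited 1 peak list per library, with a score per peak, and the peak names carry the word MACS. Whether an input library was used, the depth and the peak-calling parameters were not given in the sources used here. Lists hold no tag counts, so depth is unknown and scores were ranked within each list.

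Peaks were merged at an overlap of at least 1 bp, the highest score per list was kept, and positions were read as counted from 1. Libraries were compared with two-sided exact permutation tests, and shares were given exact 95% Clopper-Pearson intervals. The members, the lists and the rule for naming regions were chosen with earlier results of these data known. Named were all constant-end regions, the 10 variable-end regions with the highest mean control rank, those without a knockdown or without a control call, and the longest and closest distances. The 2 call-free stretches used to divide the locus were chosen after their lengths were seen. Alternatives were the score threshold, list length, merging, window, boundary, replicate block and leaving out each library. Calculations used python 3.11.15, numpy 2.4.6, pandas 2.3.3, scipy 1.17.1 and matplotlib 3.10.9, and merging was tested on simulated data. Without an mm9 genome no sequence is shown.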

Additional observations from a re-analysis of the deposited data

How the results depend on the processing

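Of 67 values recomputed under 12 alternative settings, 50 kept their direction and side of the threshold or stayed within the allowed range. Part of this count was fixed in advance and does not measure stability. The replicate block keeps each difference by construction. With so few libraries no test could cross the p threshold, so for the tested values only the direction could change. The peak number in the locus stayed lower in knockdown with each library left out (-11.0 to -4.00), but at equal list length the difference was 2.00 for the locus and 3.00 for the variable segments. Leaving out 1 library gave -5.00 to 1.00 peaks for the constant end, -0.00247 to 0.0110 percentage points for the locus share, and 4 to 9 control regions without a knockdown call. The 1.00 came from 1 region that held 2 peaks in knockdown replicate 1. With a score of at least 100, the share differed by -0.0359 points, the mean rank by 11.1 points, 6 control regions had no knockdown call, 1 region was called in all lists, the median distance was 34.0 kb and 17 regions were left. At equal list length, the mean rank differed by -10.9 points (exact permutation p = 1.00), 0 control regions had no knockdown call and 7 were called in all lists, and with the window shortened by 100 kb at each end also 7. These settings use fewer peaks or a smaller window by construction. With the replicate block, a sign-flip test of 2 pairs, whose smallest p is 0.5, left every difference as it was (-7.50 peaks in the locus, exact p = 0.5), and the labels do not say that a number marks a shared batch. Depth was not given, so a missing call cannot be told apart from a list with fewer reads.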
